A study of Homo sapiens with 8 samples.

Results

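The screen held 138 guides against 23 genes of the polycomb repressive complexes, taken as every guide whose gene label in the count table was 1 of these genes. They were 138 of 119461 guides in all. Polycomb repressive complex 2 (PRC2) was covered by 42 guides against EZH2, EZH1, EED, SUZ12, RBBP4, RBBP7 and JARID2. Polycomb repressive complex 1 (PRC1) was covered by 96 guides against RNF2, RING1, BMI1, PCGF1, PCGF2, PCGF3, PCGF5, PCGF6, CBX2, CBX6, CBX7, CBX8, PHC1, PHC2, PHC3 and KDM2B. Each gene had 6 guides, and 69 guides came from part A and 69 from part B of the GeCKOv2 knockout library.

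Polycomb proteins keep developmental and cell cycle genes silent by marking their chromatin. PRC2 methylates a lysine of histone H3 through EZH2 or EZH1, and PRC1 ubiquitinates histone H2A through RING1 or RNF2 and compacts chromatin. EZH2 is often highly expressed in triple-negative breast cancer, and polycomb is known to repress the CDKN2A locus.

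All cells were MB157R, a triple-negative breast cancer line with acquired resistance to γ-secretase inhibition that stably expresses Cas9. γ-secretase inhibitors (GSI) block the cleavage that activates Notch receptors. One transduced and puromycin-selected pool gave 2 untreated T0 libraries at day 0, and the rest of it was cultured to day 14 as 3 cultures with the vehicle DMSO and 3 with the GSI LY3039478 at 10 µM. A guide lost from a culture can mark a knockout that grew less than the rest of the pool, and a guide gained the opposite. Guide counts also differed between libraries of the same group, so a loss or gain need not be a growth effect. The level of the targeted proteins was not measured here. Since all cultures came from 1 pool, p-values measure the spread between cultures and libraries of that pool.

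The 8 libraries held 12.1 M to 18.2 M counts, with a median of 68 to 121 counts per polycomb guide. In GSI replicate 1, a single guide against VPS33B took 38.8% of all counts, and in the other libraries it took at most 1.52%. The T0 libraries stood apart from each other. Among 135 polycomb guides with a mean count of at least 10, the median absolute difference between the T0 libraries was 0.99 on the log2 scale, against 0.65 to 0.84 between DMSO libraries and 0.60 to 0.69 between GSI libraries. The T0 libraries differed by over 2 log2 units for 34 of these 135 guides (25.2%), beside 33.5% of all gene-targeting guides. T0 replicate 2 had 13 polycomb guides at 0 (9.42%, beside 11.5% of all guides), T0 replicate 1 had 1, and every later library had 0 to 4. Of the 13, 9 guides were above 0 in all 6 later libraries. Counts of calls against T0 are therefore also given without each T0 library.

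The guides at 0 in T0 replicate 2 were HGLibA_15835 (EZH2), HGLibA_14487 and HGLibB_14466 (EED), HGLibA_41608 (RNF2), HGLibB_04585 (BMI1), HGLibA_35602 and HGLibB_35555 (PCGF5), HGLibB_07443 (CBX2), HGLibA_36322 and HGLibB_36275 (PHC2), HGLibB_36277 (PHC3), and HGLibA_24497 and HGLibB_24463 (KDM2B). HGLibB_47815 against SUZ12 was at 0 in T0 replicate 1. After culture, HGLibA_35591 (PCGF1), HGLibA_07467 and HGLibB_07459 (CBX8) and HGLibA_40429 (RBBP4) also reached 0 in at least 1 library. The mean count was under 10 for 3 guides, RING1 HGLibA_41298, PCGF5 HGLibB_35555 and PHC3 HGLibB_36277, which were not tested. This left 5 tested guides for RING1, PCGF5 and PHC3 and 6 for each of the other 20 genes.

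The first comparison asked which knockouts were lost or gained with GSI relative to DMSO at day 14. No polycomb gene or guide passed an adjusted p of 0.05. Guides were tested with edgeR's quasi-likelihood test and genes with robust rank aggregation (RRA), which asks whether the guides of a gene rank low, or high, among all guides, with its p from the exact null distribution for that number of guides. The test called 0% of genes lower, 0% higher and 0% of guides over the whole library, and limma on gene levels also called 0%. The lowest adjusted p among the polycomb genes was 0.963 by RRA and 0.956 by limma. At an unadjusted p under 0.05, RRA put 3 of 23 genes, CBX7, CBX8 and PHC3, on the low side, where the share of all genes was 5.06%, and 0 on the high side, where it was 4.99%. Among guides, 3 of 135 were low (1.46% of all guides) and 0 high (1.55%). DESeq2 called 0 polycomb guides (0% of all guides), and put 3 on the low and 3 on the high side at an unadjusted p under 0.05. Over the whole library, 5078 of the 116852 guides that passed the count filter had such a DESeq2 p, both sides together. The median log2 fold change was −0.04 for PRC2 guides and −0.04 for PRC1 guides, beside −0.02 for all gene-targeting guides and −0.08 for non-targeting controls.

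For each gene the fold change given is the median, on the log2 scale, over its tested guides, followed by their SD. Guides to 1 gene share a target and are not replicates. A gene's level is the mean over its guides of the log2 of the normalized count plus 1, and limma's 95% interval for a difference in level rests on the spread between libraries. For 18 of 23 polycomb genes that interval lay within 1 log2 unit of 0 on both sides, as it did for 67.3% of all genes. It excluded 0 for 0 of 23, where it lay below 0 for 0.781% and above 0 for 4.38% of all genes. Gene levels did not overlap between GSI and DMSO for 3 genes. CBX7 was lower in all GSI libraries (2.91% of all genes were), and EZH2 and BMI1 were higher (7.09%).

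Among PRC2 genes, EZH2 (chr7:148807257-148884321 on GRCh38), the main methyltransferase, had levels of 6.02, 5.63 and 6.12 with DMSO and 6.30, 6.27 and 6.18 with GSI. All GSI libraries were higher, by 0.32 on the log2 scale of levels (95% interval −0.25 to 0.89, limma adjusted p = 0.958; exact two-sided permutation p = 0.1). With 3 against 3 libraries 0.1 is the smallest p this test can give, as it is with 3 against 2. Over guides, the EZH2 fold change was 0.32 ± 0.62 (SD, 6 guides), and it was 0.00 without GSI replicate 2. The fold change of EZH1, the other methyltransferase, was 0.13 ± 0.32, and −0.12 when libraries were scaled to their totals. The core subunits EED, which binds the methyl mark, and SUZ12, a scaffold, had fold changes of −0.18 ± 0.47 and −0.39 ± 0.67. EED was at 0.16 without DMSO replicate 2 and 0.09 without GSI replicate 2, and SUZ12 was at −0.05 without DMSO replicate 3 and −0.68 without DMSO replicate 1. The histone-binding subunits RBBP4 and RBBP7 are shared with other chromatin complexes, and their fold changes were 0.00 ± 0.97 and −0.22 ± 0.47. JARID2, an accessory subunit that helps to recruit PRC2, had 0.05 ± 0.70, and −0.11 with libraries scaled to their totals. All of these spreads over guides were larger than the fold changes beside them.

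Among PRC1 genes, CBX7 (chr22:39120167-39152680), a chromobox subunit that reads the PRC2 mark, had the most even guides. PCGF2 was nearly as even, at 0.23 ± 0.19 with 1 of 6 guides below 0. The levels of CBX7 were 6.99, 7.22 and 7.31 with DMSO and 6.93, 6.61 and 6.60 with GSI, so that the groups did not overlap. All 6 CBX7 guides were below 0, with a fold change of −0.41 ± 0.19, an exact RRA p of 0.0115 on the low side and an adjusted p of 0.963. The level difference was −0.45 (95% interval −1.02 to 0.11, limma adjusted p = 0.957; exact permutation p = 0.1). In 16 alternative settings the CBX7 fold change lay between −0.71 and −0.28.

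The other chromobox genes had fold changes of −0.38 ± 0.42 (CBX2), −0.38 ± 0.57 (CBX6) and −0.22 ± 1.29 (CBX8). Over the 4 genes, 18 of 24 guides were below 0, beside 51.4% of all gene-targeting guides. The fold changes of the 4 genes were below 0 under every scaling of the libraries. As differences in gene level, CBX6 and CBX8 were above 0, at 0.06 and 0.46, and without DMSO replicate 1 the CBX8 fold change was 0.46. The guides of CBX8 disagreed with each other. HGLibA_07466 had normalized counts of 79.7, 165 and 221 with DMSO and 70.3, 40.7 and 48.7 with GSI, a log2 fold change of −1.55 ± 0.56 (SE). HGLibA_07467 had 21.4, 0 and 6.37 with DMSO and 35.1, 22.2 and 52.6 with GSI, a log2 fold change of 1.98 ± 1.31, and HGLibA_07465 had 1.13 ± 0.77. For HGLibA_07466 the edgeR p was 0.0118 unadjusted and 1 adjusted.

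The PCGF proteins each define a variant of PRC1 and partner with its ligase. Of the 6 genes, 5 had a fold change above 0, from 0.07 ± 0.48 for PCGF1 to 0.34 ± 1.14 for PCGF6, and PCGF3 had −0.07 ± 0.45. PCGF1 was below 0, at −0.13, when libraries were scaled to their totals. BMI1 (also PCGF4), the best known of them, had levels of 6.43, 5.69 and 6.42 with DMSO and 6.46, 6.62 and 6.50 with GSI. All GSI libraries were higher, by 0.34 (95% interval −0.28 to 0.96, limma adjusted p = 0.958), and DMSO replicate 2 was the lowest of the DMSO and GSI libraries. HGLibA_35604 against PCGF6 was the polycomb guide with the highest fold change, 2.56 ± 1.30, with 3.06, 10.1 and 4.25 normalized counts with DMSO and 27.6, 7.41 and 70.1 with GSI, where the groups overlapped.

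The ligases had fold changes of 0.07 ± 0.44 (RNF2) and −0.40 ± 0.42 (RING1). RNF2 was at −0.15 with libraries scaled to their totals, and RING1 was at 0.28 without DMSO replicate 1 and 0.03 without GSI replicate 3. KDM2B, which recruits variant PRC1 to CpG islands, had 5 of 6 guides above 0 and a fold change of 0.56 ± 0.36 (exact RRA p = 0.069 on the high side, adjusted p = 0.968). Its levels were 5.26, 6.42 and 6.55 with DMSO and 6.33, 6.97 and 6.88 with GSI, so the groups overlapped. In 16 alternative settings the KDM2B fold change lay between 0.30 and 0.72.

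The polyhomeotic genes PHC1, PHC2 and PHC3 encode subunits that link PRC1 complexes into larger assemblies. PHC3 had a fold change of −0.60 ± 0.76 (exact RRA p = 0.0395, adjusted p = 0.972), which lay between −0.91 and −0.12 when 1 library was left out. It was −0.12 without GSI replicate 3 and −0.20 without DMSO replicate 1, and −0.91 without GSI replicate 1 or GSI replicate 2. PHC1 and PHC2 had −0.18 ± 0.42 and 0.18 ± 0.55, with PHC2 at −0.02 when libraries were scaled to their totals. PHC3 levels were 7.37, 7.26 and 6.78 with DMSO and 7.13, 6.85 and 5.92 with GSI. HGLibB_36276 against PHC3 had 181, 406 and 141 normalized counts with DMSO and 115, 107 and 142 with GSI (edgeR adjusted p = 1). HGLibA_36324, also against PHC3, had a log2 fold change of −1.18 ± 0.69. The untested guide HGLibB_36277 went the other way, with raw counts of 0, 0 and 0 with DMSO and 22, 20 and 12 with GSI. Against a floor of 3 counts in each DMSO library it was at least 6.17-fold higher with GSI, and with no filter on low counts its edgeR p was 0.00568 and its adjusted p 1. At T0 this guide had 1 and 0 counts.

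Of the other guides at the ends of the range, HGLibB_40378 against RBBP4 was the lowest, at −1.70 ± 0.81 (edgeR adjusted p = 1). Its normalized counts were 37.8, 89.2 and 102 with DMSO and 10.0, 36.3 and 23.4 with GSI. HGLibA_40429 against the same gene had 1.05 ± 1.48. HGLibA_23936 (JARID2) had −1.41 ± 0.79, HGLibB_07443 (CBX2) had −1.06 ± 1.05 and HGLibB_36275 (PHC2) had 1.23 ± 0.99. The polycomb guides of library part A had a median of 0.17 and those of part B −0.17, beside 0.03 and −0.08 over all genes, and its part in the values of single genes was not tested.

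The comparisons with T0 asked which knockouts were lost or gained over 14 days, with DMSO or with GSI, relative to T0. They share the T0 libraries, so their values are given side by side and are not independent. No polycomb gene passed an adjusted p of 0.05 in either. With DMSO, RRA called 0.0323% of all genes lower and 0% higher, edgeR called 0% of guides and limma 0% of gene levels. With GSI the shares were 0%, 0%, 0% and 0%. The lowest adjusted p among polycomb genes was 0.539 with DMSO and 0.541 with GSI by RRA, and 0.148 and 0.120 by limma.

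At an unadjusted p under 0.05, RRA put EZH1 and PHC3 low with DMSO (6.12% of all genes) and RBBP7 high (5.3%). With GSI it put EZH2 and RBBP4 low (5.69%) and RBBP7 and RING1 high (5.39%). Among guides, 10 of 135 were low with DMSO (3.55% of all guides) and 3 high (4.19%), and with GSI 5 were low (3.99%) and 7 high (4.72%). Gene levels lay wholly below T0 for 3 of 23 genes with DMSO (8.7% of all genes) and 4 with GSI (7.26%). They lay wholly above T0 for 6 genes with DMSO and 8 with GSI, where 24.1% and 30.3% of all genes did. Such a gap on the high side was thus common over the library. The median level over all genes was 5.86 at T0, 6.19 with DMSO and 6.26 with GSI. Level differences and intervals of single genes against T0 are not corrected for this rise. The limma interval lay below 0 for RBBP4 in each comparison, 1 of 23 genes, beside 3.5% of all genes with DMSO and 2.27% with GSI. It lay above 0 for 4 of 23, SUZ12, RBBP7, RING1 and PHC2 both times, beside 12.3% and 17% of all genes.

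The median log2 fold change of PRC2 guides was −0.19 with DMSO and −0.28 with GSI, and that of PRC1 guides 0.07 and 0.09. Over all gene-targeting guides it was 0.00 and −0.02. As a scale for these values, guides against cytosolic ribosomal proteins, which dividing cells need, had −0.97 and −0.63, guides against olfactory receptors, which these cells should not need, had 0.09 and 0.10, and non-targeting controls had 0.25 and 0.18. Of 80 ribosomal protein genes, RRA called 1 lower with DMSO and 0 with GSI, and 0 higher, at an adjusted p under 0.05. A polycomb gene that did not pass can therefore not be read as one these cells do without. Without T0 replicate 1 the PRC2 median with DMSO was 0.02 and that of all gene-targeting guides 0.20. Without DMSO replicate 2 they were −0.43 and −0.02. The PRC2 median minus that of all gene-targeting guides was −0.18 and −0.41, beside −0.19 with all libraries.

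Guides named from here on, other than those at 0 in a library or at the ends of the GSI against DMSO range, were chosen after their values were seen. The PRC2 methyltransferases both had fold changes below 0, with 10 of 12 guides below 0 with DMSO and 8 of 12 with GSI. Of all gene-targeting guides, 50.1% and 51.0% were below 0. EZH1 (chr17:42700275-42745049) had levels of 7.92 and 7.70 at T0, 7.36, 7.32 and 7.29 with DMSO and 7.42, 7.55 and 7.35 with GSI. All later libraries were lower than both T0 libraries. With 5 of 6 guides below 0 each time, the fold change was −0.74 ± 0.65 with DMSO (exact RRA p = 0.0119, adjusted p = 0.539) and −0.49 ± 0.51 with GSI (exact RRA p = 0.0776, adjusted p = 0.925). The EZH1 fold change stayed below 0 in all 15 alternatives of each comparison.

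EZH2 had levels of 6.06 and 5.96 at T0, inside the range with DMSO and below that with GSI. Its fold change was −0.61 ± 1.96 with DMSO and −0.51 ± 1.85 with GSI (exact RRA p = 0.00745, adjusted p = 0.567), while its level with GSI was 0.24 above T0 (95% interval −0.52 to 1.00). With GSI, median and level differed in sign, but the EZH2 level percentile among all genes was 57.7 at T0 and 49.1 with GSI. The guides were far apart. HGLibB_15814 had 92.8 and 91.1 normalized counts at T0, 11.2, 1.68 and 15.9 with DMSO and 28.9, 3.70 and 14.6 with GSI. HGLibA_15836 had 1.56 and 31.8 at T0, 129, 38.7 and 144 with DMSO and 129, 98.5 and 79.8 with GSI.

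RBBP4 and RBBP7, close paralogs, lay on opposite sides of T0. RBBP4 (chr1:32651142-32686211) had levels of 7.37 and 6.53 at T0, 6.00, 5.98 and 5.17 with DMSO and 5.78, 5.74 and 5.93 with GSI. The level difference was −1.23 with DMSO (95% interval −2.30 to −0.15, limma adjusted p = 0.261) and −1.13 with GSI (−2.01 to −0.24, adjusted p = 0.185). All later libraries were below both T0 libraries, and with GSI all 6 guides were below 0, with a fold change of −0.80 ± 1.00 (exact RRA p = 0.00559, adjusted p = 0.541).

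RBBP7 (chrX:16839283-16870362) had levels of 6.43 and 6.06 at T0, 7.57, 7.34 and 7.54 with DMSO and 7.35, 7.55 and 7.18 with GSI. All later libraries were above both T0 libraries, by 1.24 with DMSO (95% interval 0.30 to 2.18, limma adjusted p = 0.207) and 1.12 with GSI (0.31 to 1.92, adjusted p = 0.167). None of its 6 guides was below 0 with DMSO and 1 was with GSI. Without T0 replicate 1 the RBBP4 fold change with DMSO was 0.00, beside −0.54 ± 1.51 with both T0 libraries, and that of RBBP7, 0.76 ± 1.09, stayed above 0 in all 15 alternatives.

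Each of the pair had a guide with a wide gap to T0. HGLibA_40429 against RBBP4 had 163 and 125 normalized counts at T0, 22.5, 6.73 and 0 with DMSO and 40.2, 6.67 and 14.6 with GSI. HGLibB_40385 against RBBP7 had 44.5 and 44.2 at T0, 237, 279 and 333 with DMSO and 138, 223 and 189 with GSI. Neither passed the edgeR test, with adjusted p of 0.578 and 0.491 for the RBBP4 guide and 0.488 and 0.48 for the RBBP7 guide.

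The remaining PRC2 subunits differed in how far their guides could be read. SUZ12 (chr17:31937007-32001038) had levels of 3.77 and 3.58 at T0, 5.04, 5.21 and 5.35 with DMSO and 4.67, 4.78 and 5.27 with GSI. The levels were higher by 1.52 (95% interval 0.59 to 2.46, limma adjusted p = 0.148) and 1.23 (0.39 to 2.07, adjusted p = 0.159), but its T0 counts were low and the fold changes over guides were 0.43 ± 1.32 and 0.37 ± 0.97. Leaving out 1 library took them from 0.18 to 1.65 with DMSO and from −0.06 to 1.32 with GSI, where −0.06 was without GSI replicate 3 and 1.32 without T0 replicate 1. EED had −0.62 ± 3.13 and −0.90 ± 2.90, the widest spread over guides of the 23 genes in the DMSO comparison and in the GSI comparison with T0. Without T0 replicate 1 these fold changes were −0.13 and 0.09, and without T0 replicate 2 they were −0.43 and 0.06. Its guide HGLibA_14487 had raw counts of 1 and 0 at T0 and 15 to 105 later, while HGLibB_14466 had 197 and 0 at T0 and 0 to 46 later. JARID2 had −0.13 ± 0.34 and −0.23 ± 0.90.

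In PRC1, the ligase RNF2 had fold changes of −0.06 ± 0.47 and −0.17 ± 0.34. RING1 (chr6:33208500-33212722) had levels of 5.87 and 5.0 at T0, 6.87, 6.32 and 6.63 with DMSO and 6.76, 6.62 and 6.00 with GSI, above both T0 libraries throughout. The RING1 differences were 1.17 (95% interval 0.14 to 2.19, limma adjusted p = 0.262) and 1.02 (0.04 to 2.01, adjusted p = 0.246).

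PHC2 (chr1:33323623-33431095) had levels of 4.48 and 3.88 at T0, 5.36, 5.27 and 6.02 with DMSO and 5.84, 5.60 and 6.23 with GSI. The level differences were 1.37 (95% interval 0.35 to 2.39, limma adjusted p = 0.201) and 1.71 (0.82 to 2.60, adjusted p = 0.120). Over guides, the PHC2 fold changes were 1.06 ± 2.58 and 0.84 ± 2.55, with a spread wider than either value. Both stayed above 0 in all 15 alternatives, but leaving out 1 library took the value with GSI from 0.08 to 1.52. Its guide HGLibA_36322 had raw counts of 1 and 0 at T0 and 23 to 88 later, and HGLibB_36275 had 169 and 0 at T0 and 1 to 152 later. PHC1 had fold changes of 0.90 ± 0.80 and 0.15 ± 0.91. PHC3 had −0.38 ± 1.56 and −0.42 ± 1.25, with HGLibA_36325 at 296 and 483 normalized counts at T0, 132, 48.8 and 84.9 with DMSO and 81.6, 80.7 and 12.7 with GSI.

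Among the PCGF genes, fold changes ran from −0.54 ± 1.19 (PCGF2) to 0.43 ± 0.84 (PCGF5) with DMSO and from −0.38 ± 1.04 (PCGF3) to 0.09 ± 1.44 (BMI1) with GSI. For PCGF1 they were 0.12 ± 1.64 and 0.02 ± 1.67, and for PCGF6 −0.38 ± 2.19 and −0.04 ± 1.28. BMI1 and PCGF2, close paralogs, had 0.00 ± 1.49 and −0.54 ± 1.19 with DMSO. The T0 levels of BMI1 were far apart, at 6.62 and 4.80. Leaving out 1 library took its fold change with DMSO from −0.36 to 0.99. HGLibB_35546 against PCGF1 had 349 and 195 normalized counts at T0, 75.6, 57.2 and 52.0 with DMSO and 56.5, 27.4 and 74.9 with GSI. The other PCGF1 guides spread widely, and HGLibA_35591 had 7.80 and 50.4 at T0 and 0 to 23.7 later.

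The chromobox genes had fold changes from 0.15 ± 1.11 (CBX6) to 0.60 ± 2.27 (CBX8) with DMSO and from −0.15 ± 1.48 (CBX6) to −0.07 ± 1.79 (CBX8) with GSI. With DMSO, CBX2, CBX6 and CBX7 were below 0 when libraries were scaled to the non-targeting controls. KDM2B could not be read against T0, since its level was 7.26 in T0 replicate 1 and 3.13 in T0 replicate 2. Its fold change with DMSO was −0.01 ± 1.19 and became 5.17 without T0 replicate 1 and −0.92 without T0 replicate 2.

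Calls of single guides against T0 depended on the tool and on the T0 library. DESeq2 called 7 polycomb guides with DMSO, 4 lower and 3 higher, and 10 with GSI, 4 lower and 6 higher. Guides of PCGF1 (HGLibB_35546), PHC3 (HGLibA_36325) and RBBP4 (HGLibA_40429) were lower both times, and guides of RBBP7 (HGLibB_40385), PHC2 (HGLibA_36322) and EED (HGLibA_14487) were higher both times. With DMSO the DESeq2 adjusted p was 1.96e-07 for the RBBP7 guide and 0.00205 for the PCGF1 guide. DESeq2 called 5.73% of all guides with DMSO and 6.78% with GSI, so 7 and 10 of 135 lay near the share of the whole library.

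Without T0 replicate 1, edgeR called 14 polycomb guides with DMSO, 4 lower and 10 higher (7.13% of all guides), and 24 with GSI, 5 lower and 19 higher (18.1%). Without T0 replicate 2 it called 0 with DMSO (0.0163%) and 5 with GSI (4.72%). In both fits a single T0 library was assumed to vary like the later ones. The RBBP7 guide HGLibB_40385 was called without T0 replicate 1 in both comparisons, and with T0 replicate 1 alone in neither.

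Beyond these 23 genes, 25 other genes that encode polycomb subunits or act beside them were measured with 144 tested guides. Their median log2 fold change was 0.03 with GSI relative to DMSO, −0.13 with DMSO relative to T0 and −0.07 with GSI relative to T0, and no gene passed the adjusted threshold. At an unadjusted RRA p under 0.05, 0 were low and 1 high with GSI relative to DMSO, 1 and 1 with DMSO relative to T0, and 1 and 2 with GSI relative to T0. ASXL3, a partner of the H2A deubiquitinase BAP1, was the gene on the high side with GSI relative to DMSO, at 0.05 ± 1.05 (exact RRA p = 0.0451). ASXL1, of the same family, was on the low side of RRA against T0. It was at −0.58 ± 1.41 with DMSO (exact RRA p = 0.0442, adjusted p = 0.793) and 0.07 ± 1.38 with GSI (exact RRA p = 0.0332, adjusted p = 0.812). With GSI its median was thus above 0, and 2 of its 5 guides were below 0. MTF2, which brings PRC2 to CpG islands, was high against T0, at 1.35 ± 1.36 (exact RRA p = 0.0222) and 1.26 ± 1.24 (exact RRA p = 0.0485), and its relative PHF1 was high with GSI, at 0.36 ± 4.94 (exact RRA p = 0.0149).

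The cell cycle inhibitors CDKN2A, CDKN2B, CDKN1A and CDKN1C, of which CDKN2A is a known polycomb target, had medians over 23 guides of 0.01, 0.34 and 0.23 in the same order of comparisons. None of the 4 genes passed the adjusted threshold, and CDKN1A was at 0.79 ± 1.32 with GSI relative to T0 (exact RRA p = 0.0305, adjusted p = 0.913). SWI/SNF subunits, which remodel chromatin and oppose polycomb, had medians over 147 guides of 0.02, −0.13 and −0.05, and 0 of 25 genes passed. Ribosomal protein guides and olfactory receptor guides had 0.12 and −0.01 with GSI relative to DMSO.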

How the data were processed

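Guide abundance was measured by sequencing the guide cassette in 2 T0, 3 DMSO and 3 GSI libraries. The authors deposited raw read counts per guide, made with MAGeCK 0.5.9.2 after bcl2fastq 2.19 and FastQC 0.11.5, per the submitters' processing notes. Their normalized table and their own gene test were not used. Depth was 12.1 M to 18.2 M counts per library. Reads carry no molecular identifiers, so the floor of 3 counts covers counting error at most. The limma intervals rest on the spread between libraries.

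Guides whose raw counts averaged 10 or more over the libraries were scaled by median-ratio size factors and tested with edgeR 4.0.16 (quasi-likelihood) in R 4.3.3, within the 2 groups compared. Genes with at least 4 tested guides were ranked by robust rank aggregation (alpha 0.25, exact null). Non-targeting and microRNA guides were left out of the gene test. P-values were adjusted over the whole library by Benjamini-Hochberg, with a threshold of 0.05. Gene levels (pseudocount 1) were tested with limma 3.58.1 and exact two-sided permutation over libraries. DESeq2 1.42.0, other scalings, filters, RRA settings, a joint fit, a replicate block and leaving out each library were alternatives. The code was tested on simulated data. Gene positions are from GENCODE 44 (GRCh38). Guide sequences are not analysed here.

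The 23 genes and all gene lists were chosen with earlier results of these data known. All 23 genes are named. Single guides are named if they were among the 5 lowest or 5 highest fold changes or had an unadjusted p under 0.05 with GSI relative to DMSO, or were at 0 in a library. Further guides named in the comparisons with T0 were chosen after their values were seen. Of the other polycomb genes, at most 3 per comparison and side, by lowest p, could be named.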

Additional observations from a re-analysis of the deposited data

How the results depend on the processing

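No polycomb gene passed the adjusted threshold in any comparison under any alternative run. With GSI relative to DMSO, scaling to library totals, where 1 guide fills much of GSI replicate 1, gave 10 guides called in all and medians of −0.28 (PRC2) and −0.24 (PRC1), while the median of all genes moved to −0.22. With DMSO relative to T0, where 6 genes were called, a mean count of at least 50 and limma on gene levels each gave 0, and the joint fit gave 3 genes and 34 guides. DESeq2 called 6694 guides, 7 of them polycomb. The PRC1 median was 0.16 with library totals and 0.14 without the most counted guide. Scaling to non-targeting controls gave −0.44 (PRC2) and −0.20 (PRC1), with all genes at −0.26. With GSI relative to T0, library totals gave 10 genes, 1 guide and a PRC1 median of −0.11, with all genes at −0.16. Non-targeting controls gave −0.47 and −0.10, with all genes at −0.22. A mean count of at least 50 gave 1 gene, the joint fit 1, and DESeq2 2 genes and 7927 guides, 10 of them polycomb. Causes of these shifts were not tested.

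Leaving out 1 library at a time gave, with GSI relative to DMSO, 0 to 1 genes called and medians of −0.041 to 0.14 (PRC2; 0.14 without DMSO replicate 1) and −0.06 to 0.03 (PRC1). With DMSO relative to T0 it gave 0 to 7 genes, 0 to 8327 guides, 0 to 14 polycomb guides and medians of −0.43 to 0.017 and 0.033 to 0.34. No gene was called without either T0 library. With GSI relative to T0 it gave 0 to 1 genes, 0 to 21131 guides, 0 to 24 polycomb guides and medians of −0.31 to −0.12 and −0.017 to 0.16. The highest guide counts were without T0 replicate 1. The median of all gene-targeting guides ranged from −0.026 to 0.20 with DMSO relative to T0. With GSI relative to T0 it ranged from −0.05 to 0.17. Both maxima were without T0 replicate 1. A lone T0 library was assumed to vary like the other groups.

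The replicate numbers pair the samples only as numbers: deviations of same-numbered DMSO and GSI libraries correlated at 0.282, 0.0638 and 0.122, each the highest for its DMSO library. For DMSO replicate 2 the next was close, at 0.0464 with GSI replicate 3, so this is a weak hint at most. With the replicate block the PRC1 median was 0.12 with GSI relative to DMSO, and with DMSO relative to T0 the medians were −0.057 (PRC2) and 0.22 (PRC1), with 5 genes called. It changed no call of a polycomb gene or guide.

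Of the fold changes of single polycomb genes, the sign held in all alternatives for 11 of 23 genes with GSI relative to DMSO, 9 with DMSO relative to T0 and 6 with GSI relative to T0. Low T0 counts and the gap between the T0 libraries limit what can be read against T0.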
